A study of Mus musculus with 6 samples.

Results

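Microglia, the resident macrophages of the brain, were followed through 9 genes: the fractalkine receptor gene Cx3cr1, the colony stimulating factor receptor gene Csf1r, the purinergic receptor gene P2ry12, the membrane protein gene Tmem119, Aif1, which encodes the calcium-binding protein IBA1, the integrin gene Itgam (CD11b), and C1qa, C1qb and C1qc, which encode the chains of complement C1q. The genes were taken by name, with no measured value in the rule, although earlier results of these data were known when the list was made. They are 9 of the 24935 genes in the table of the study, and all 9 were among the 17778 genes whose mean normalised count was at least 10. RNA was sequenced from the left hippocampus of C57BL/6 mice at postnatal day 14 (P14). The pups were kept with their dams either in room air (air, n = 3 mice) or in 85% oxygen at normal pressure (hyperoxia, n = 3 mice) from P2 to P14, and no allele or agent other than the gas was named for either group. The labels do not say whether littermates were sampled, so each p-value measures the spread between these mice. Every direction given here rests on the group names in the column headers of the deposited table, and "hyperoxia" below means the libraries labelled so. The sources on this study give opposite signs of the mRNA difference for several genes outside the 9, among them cell type markers counted below. Nothing in the files settles which sign is right. Were the header names exchanged, every direction below would turn.

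Microglia enter the brain early in embryonic life and renew themselves there. They survive on signals through Csf1r, whose ligands are Csf1 and Il34, and sense neurons through Cx3cr1, the receptor of the neuronal chemokine Cx3cl1, and nucleotides through P2ry12. In the developing hippocampus they take up synapses, some of which carry C1q, the recognition molecule that opens the classical complement pathway, and are bound through complement receptor 3, of which Itgam is a subunit. Microglia are the main source of C1q in the brain. P2ry12 and Tmem119 separate microglia from most other macrophages, whereas Cx3cr1, Csf1r, Aif1, Itgam and C1q are shared with macrophages at the borders of the brain.

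Between 34976005 and 38746972 reads fell on genes in the air libraries and between 30384052 and 38045901 in the hyperoxia libraries. The 9 genes had from 101 to 4020 reads each in a library, Aif1 having the fewest, so counting error weighs most on its value. Replicates were less alike in hyperoxia, where the chi-square per gene between 2 libraries was 17.1 to 53.7, against 7.23 to 11.7 in air. The tissue label was checked against 8 markers of hippocampal neurons, all of which were detected and 4 of which fell in hyperoxia. Markers of other cell types also moved with the groups, where 30.5% of all genes tested passed in either direction. Of oligodendrocyte genes 9 of 10 fell, and of their precursors' genes 3 of 6 rose. Of astrocyte genes 5 of 10 rose and 1 fell, of endothelial genes 5 of 10 rose and 1 fell, of neuronal genes 1 of 10 rose and 5 fell, and of thalamus genes 3 of 6 rose. The summed choroid plexus markers were 580.03 to 1464 in air and 812, 551 and 8252 in hyperoxia libraries 1, 2 and 3. In hyperoxia library 3, 7454 of that sum was Ttr. The part of these shifts in the results below was not tested. In bulk tissue, fewer cells of a type and less RNA per cell cannot be told apart.

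The C1q genes lie beside each other on mouse chromosome 4 (GRCm38, GENCODE M21 annotation), all on the minus strand. C1qb occupies bases 136880129 to 136886187, C1qc bases 136889804 to 136893065, and C1qa bases 136895917 to 136898803. The gaps are 3616 bases between C1qb and C1qc and 2851 bases between C1qc and C1qa, and the whole cluster spans 18675 bases. RefSeq promoter windows (GRCm38.p6, 250 bases before to 50 after the start) were at hand for 6 of the 9 genes. The start is the RefSeq start, which is not always the edge of the GENCODE gene. The C1qc sequence below runs into the GENCODE C1qc gene, and the Cx3cr1 sequence lies within the GENCODE Cx3cr1 gene. The 250 bases before the start are printed for neighbours C1qb and C1qc, whose levels are set against each other below, and for Cx3cr1, the gene that passed the test. Capitals mark the letters GAGGAA or, on the other strand, their complement, the core recognised by the myeloid factor PU.1, and its longer form GAGGAAGT. The C1qb sequence is chr4:136886201-136886450, the C1qc sequence is chr4:136892915-136893164 and the Cx3cr1 sequence is chr9:120068297-120068546, each read from the minus strand.
C1qb: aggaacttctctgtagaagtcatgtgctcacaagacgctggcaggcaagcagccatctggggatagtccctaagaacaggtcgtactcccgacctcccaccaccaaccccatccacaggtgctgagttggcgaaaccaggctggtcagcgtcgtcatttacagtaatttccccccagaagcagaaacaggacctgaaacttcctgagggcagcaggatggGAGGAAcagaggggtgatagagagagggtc
C1qc: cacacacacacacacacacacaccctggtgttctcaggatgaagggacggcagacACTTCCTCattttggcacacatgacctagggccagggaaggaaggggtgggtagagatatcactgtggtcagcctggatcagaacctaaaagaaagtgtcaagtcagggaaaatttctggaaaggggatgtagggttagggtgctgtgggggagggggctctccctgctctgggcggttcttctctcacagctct
Cx3cr1: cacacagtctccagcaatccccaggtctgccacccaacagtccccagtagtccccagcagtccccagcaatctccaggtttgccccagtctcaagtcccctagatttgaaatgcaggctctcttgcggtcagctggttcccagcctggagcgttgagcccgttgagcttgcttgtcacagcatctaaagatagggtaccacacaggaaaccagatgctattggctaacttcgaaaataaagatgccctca
The core was present at bases -30 to -25 before the C1qb start and on the other strand at -193 to -188 before the C1qc start, where it formed part of the longer form. No match stood in the Cx3cr1 window. Of the other windows, those of Itgam (3 matches) and Aif1 (1 match) held the core and that of P2ry12 did not. In all, 4 of 6 windows held GAGGAA on either strand, against 28.3% of all 32851 promoters. The longer GAGGAAGT, which overlaps the core, was in 1 of 6 against 3.20%, and the AP-1 letters TGANTCA were in 0 of 6 against 7.81%. These are matches of letters and not measured binding.

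The remaining genes are scattered. Cx3cr1 (ENSMUSG00000052336.7) lies on chromosome 9 at 119901616 to 120069879, P2ry12 (ENSMUSG00000036353.13) on chromosome 3 at 59216272 to 59262871, Tmem119 on chromosome 5 at 113793729 to 113800516 and Aif1 on chromosome 17 at 35170991 to 35176068, all on the minus strand. Itgam is on the plus strand of chromosome 7 at 128062640 to 128118491 and Csf1r on the plus strand of chromosome 18. Exons of Cx3cr1, P2ry12 and Csf1r overlap exons of a gene on the other strand by 78, 9 and 873 bases, and whether counting used strand was not given in the sources used here. In Itgam, 3450 exon bases are shared with Gm49368 on the same strand, so its level is less certain.

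Per kilobase of exon, C1qb and C1qa stood highest among the 9 genes. Mean normalised counts per kilobase in air were 1599 ± 121 (SD, n = 3) for C1qb, 1541 ± 71.0 for C1qa, 944 ± 15.7 for P2ry12 and 640.4 ± 43.4 for C1qc. They were 552 ± 14.0 for Csf1r, 359 ± 18.8 for Cx3cr1, 348 ± 25.8 for Tmem119, 91.2 ± 8.35 for Aif1 and 64.7 ± 2.59 for Itgam. The libraries of C1qb and C1qa overlapped in air, as did those of Cx3cr1 and Tmem119, while the other neighbours in this order were separate. The means had the same order in hyperoxia, where C1qb and C1qa again overlapped. Cx3cr1 (468 to 499.9 per kilobase) no longer overlapped Tmem119 (336 to 421), but C1qc (594 to 867) overlapped Csf1r (604 to 630.4), and Aif1 (65.8 to 74.6) overlapped Itgam (51.7 to 67.8). The place of C1qc depends on the gene model: per kilobase of its longest transcript it stood at 1028 ± 69.6 in air, beside P2ry12 at 1025 ± 17.1.

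**Figure D1:**
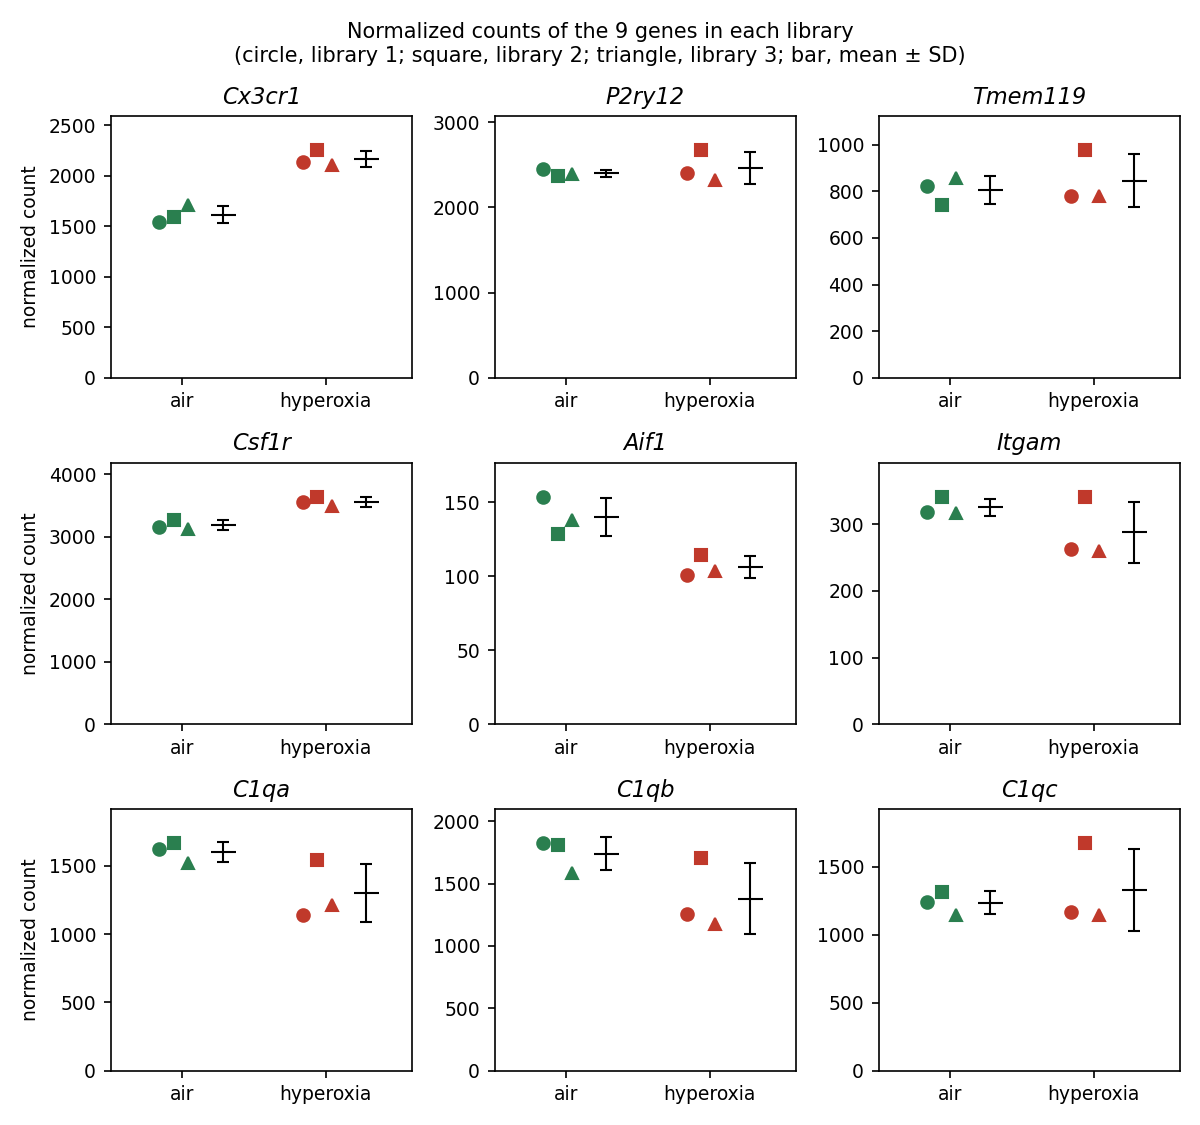
Normalised counts of the 9 genes in each library, with 1 panel a gene and its own axis; green marks air, red hyperoxia, the circle, square and triangle libraries 1, 2 and 3, and the bar the mean ± SD. Cx3cr1 and Csf1r are higher in all 3 hyperoxia libraries than in any air library and Aif1 is lower, while the other 6 genes overlap, with hyperoxia library 2 (square) the highest red point throughout.

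How much each gene differed between air and hyperoxia was the main question, and Cx3cr1 was the only 1 of the 9 genes that passed the test (limma, Benjamini-Hochberg adjustment over all 17778 genes, adjusted p under 0.05). Over all genes tested, 30.5% passed, 14.9% as higher and 15.6% as lower in hyperoxia. The median log2 difference was 0.03 over the 9 genes and -0.01 over all genes. The libraries of the groups did not overlap for 3 of the 9 genes, against 46.1% of all genes.

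Cx3cr1 was higher in the libraries labelled hyperoxia. Its normalised counts were 1547, 1588 and 1710.4 in the air libraries and 2136, 2252 and 2109.9 in the hyperoxia libraries. Every hyperoxia library exceeded every air library, and the means were 1615 ± 84.8 and 2166 ± 75.6 (SD, n = 3 each). The log2 difference on the log2(value + 1) scale used throughout was 0.42 (SE 0.07, 95% interval 0.26 to 0.59, limma adjusted p = 0.0029), a 1.34-fold level. Its ligand gene Cx3cl1, which neurons express, measured 29216 ± 1507 in air and 26440.2 ± 1394 in hyperoxia and did not pass the test (-0.14, SE 0.08, limma adjusted p = 0.195).

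Csf1r, the growth factor receptor on which microglia depend, measured 3164, 3276 and 3119 in air and 3554, 3639.9 and 3486 in hyperoxia. No hyperoxia library was as low as the highest air library, and the means were 3186 ± 80.6 and 3559.9 ± 77.0. The difference of 0.16 (SE 0.06, 95% interval 0.02 to 0.30) did not pass over all genes (limma adjusted p = 0.086). Neither ligand passed: Csf1 was at 663 ± 37.3 in air and 582 ± 55.4 in hyperoxia (-0.19, limma adjusted p = 0.164), and Il34 at 1090.5 ± 49.4 and 1126 ± 70.3 (0.05, limma adjusted p = 0.697).

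P2ry12, the ADP receptor of resting microglia, measured 2447, 2368 and 2395 in air and 2401, 2669.6 and 2320.4 in hyperoxia. The groups overlapped, with both the highest and the lowest value in hyperoxia. The difference was 0.03 (SE 0.07, limma adjusted p = 0.76), with a 95% interval of -0.13 to 0.20. Tmem119, a surface marker of mature microglia, measured 821, 739.8 and 856 in air and 781, 975 and 778 in hyperoxia. Here too the groups overlapped, and the difference of 0.06 (SE 0.11, limma adjusted p = 0.69) had an interval of -0.18 to 0.30.

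Aif1 measured 154, 128 and 138 in air and 101, 114 and 103 in hyperoxia, so every hyperoxia library lay below every air library. The means were 139.8 ± 12.8 and 106 ± 7.22. The difference of -0.39 (SE 0.14, 95% interval -0.70 to -0.09) was close in size to that of Cx3cr1 with a larger error, and it did not pass (limma adjusted p = 0.0535). Aif1 passed in 4 of 16 alternative analyses, with adjusted p from 0.028 without hyperoxia library 2 to 0.18. Itgam, the CD11b chain, measured 317, 339.9 and 317 in air and 263, 341 and 259.6 in hyperoxia. Hyperoxia library 2 held the highest value of all 6 and the other hyperoxia libraries the lowest, and the difference was -0.19 (SE 0.12, 95% interval -0.46 to 0.09, limma adjusted p = 0.284). Without hyperoxia library 2 it was -0.31 and passed (limma adjusted p = 0.025). Its partner chain Itgb2 measured 135 ± 4.06 in air and 126 ± 9.59 in hyperoxia (-0.10, limma adjusted p = 0.577).

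None of the C1q chain genes passed the test, and their point estimates differed. C1qa measured 1621, 1666 and 1521 in air and 1139, 1539.7 and 1216 in hyperoxia. C1qb measured 1823, 1808 and 1588 in air and 1255, 1702 and 1175 in hyperoxia. In both genes hyperoxia libraries 1 and 3 lay below all air libraries and library 2 lay among them. The differences were -0.32 for C1qa (SE 0.11, 95% interval -0.56 to -0.07, limma adjusted p = 0.0565) and -0.35 for C1qb (SE 0.13, 95% interval -0.65 to -0.06, limma adjusted p = 0.0685). C1qc measured 1245, 1316 and 1149 in air and 1165, 1674 and 1148 in hyperoxia. Hyperoxia library 2 lay above all air libraries, library 1 at the low end of their range and library 3 just below it. The C1qc difference was 0.08 (SE 0.14, 95% interval -0.23 to 0.39, limma adjusted p = 0.674). Without hyperoxia library 2, C1qa (-0.44, limma adjusted p = 6.4e-04) and C1qb (-0.52, limma adjusted p = 5.2e-04) fell, whereas C1qc was at -0.09 and did not pass. The coefficient of variation in hyperoxia was 16.4% for C1qa, 20.6% for C1qb and 22.5% for C1qc, against 4.61%, 7.56% and 6.78% in air.

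Ratios between the chains varied less among the hyperoxia libraries than the levels did. These ratios were chosen after the values had been seen. C1qa over C1qb was 0.889, 0.921 and 0.958 in air and 0.907, 0.905 and 1.04 in hyperoxia. These overlap, and the log2 difference was 0.04 (exact two-sided permutation p = 0.7). C1qc over C1qb was 0.683, 0.728 and 0.723 in air and 0.928, 0.984 and 0.977 in hyperoxia. All hyperoxia libraries, library 2 included, lay above all air libraries, with means of 0.711 ± 0.0247 and 0.963 ± 0.0304 and a log2 difference of 0.44. C1qc over C1qa was 0.768, 0.790 and 0.755 in air and 1.02, 1.09 and 0.944 in hyperoxia (log2 difference 0.40), again without overlap. The exact permutation p was 0.1 for each of the latter 2 ratios, the smallest that 3 libraries against 3 allow, and 0.15 after adjustment over the 3 ratios.

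**Figure D2:**
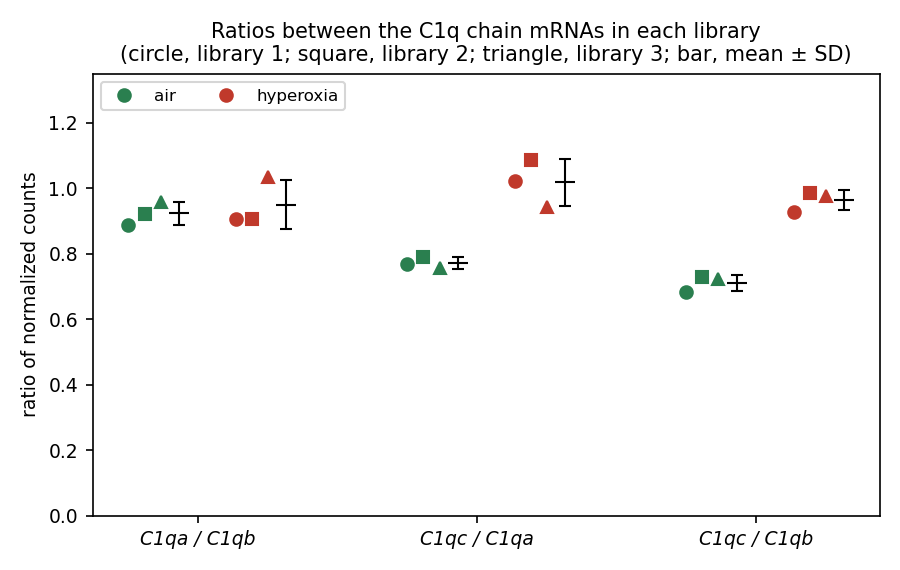
Ratios of normalised counts between the C1q chain genes in each library, air in green and hyperoxia in red, the circle, square and triangle being libraries 1, 2 and 3 and the bar the mean ± SD. C1qa over C1qb overlaps between the groups, while C1qc over C1qa and C1qc over C1qb are higher in all 3 hyperoxia libraries.

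Transcript length was related to the difference between groups over the whole table. The median log2 difference rose from -0.146 among the 20% of genes with the shortest transcripts (57 to 1721 bases) to 0.183 among the 20% with the longest (5034 to 123179 bases). Aif1 (875 bases), C1qa (1040), C1qb (1088) and C1qc (1203) all fall in the shortest of these classes, and Cx3cr1 (4493), Csf1r (4701) and Itgam (4682) are long. With each library's trend on length and GC content removed, Cx3cr1 stayed higher (0.37, limma adjusted p = 0.0019). C1qa moved to -0.13 (adjusted p = 0.20), C1qb to -0.17 (adjusted p = 0.15), Aif1 to -0.26 (adjusted p = 0.15) and Itgam to -0.27 (adjusted p = 0.15) in that limma fit. C1qc moved to 0.27 and passed (limma adjusted p = 0.041), Csf1r was at 0.15 (adjusted p = 0.056), Tmem119 at 0.20 (adjusted p = 0.073) and P2ry12 at -0.06 (adjusted p = 0.61). GC content was 59.5% for C1qa, 57.4% for C1qb and 57.5% for C1qc. The part of length and GC content in the differences was not tested beyond this fit.

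**Figure D3:**
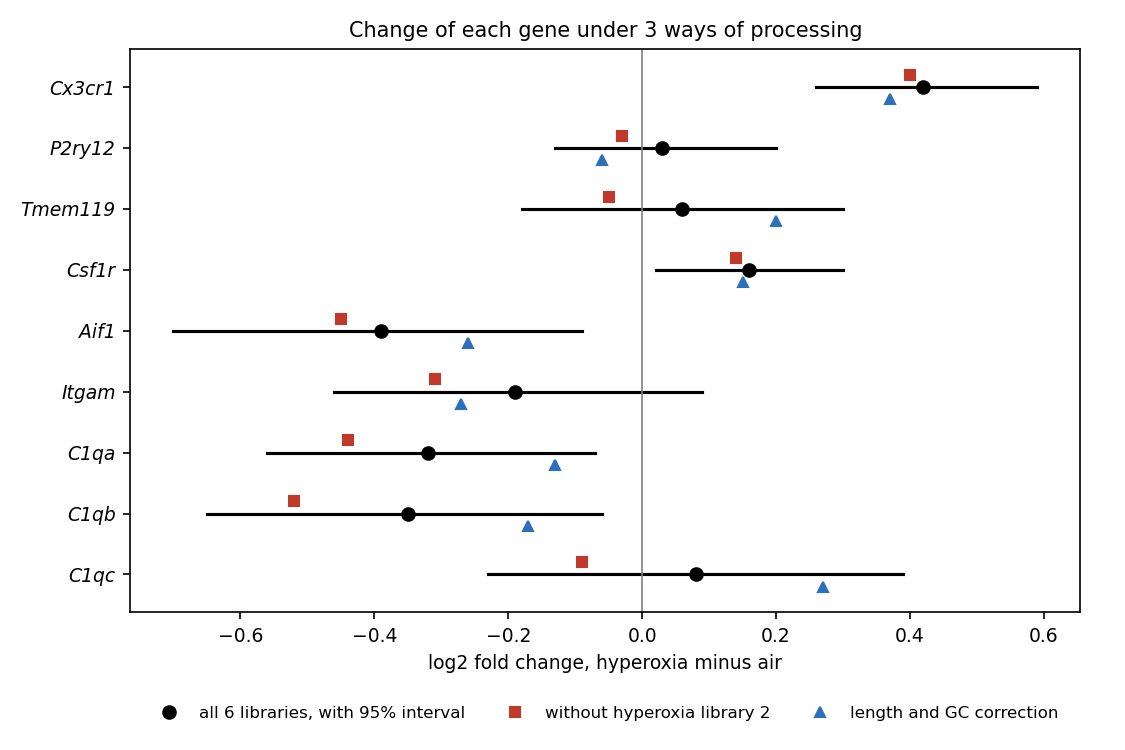
Log2 difference (hyperoxia minus air) of each of the 9 genes. Black circles with bars are all 6 libraries with the 95% interval from limma, red squares leave out hyperoxia library 2, and blue triangles have the length and GC trend removed. Cx3cr1 lies between 0.37 and 0.42 in all 3, while P2ry12, Tmem119 and C1qc have values on both sides of 0.

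Hyperoxia library 2 held the highest value of the 3 hyperoxia libraries for all 9 genes, which was so for 40.2% of all genes tested. Relative to the mean of hyperoxia libraries 1 and 3, it stood at 1.45 for C1qc, 1.40 for C1qb, 1.31 for both C1qa and Itgam and 1.25 for Tmem119. The excess was smaller for P2ry12 (1.13), Aif1 (1.12), Cx3cr1 (1.06) and Csf1r (1.03). The summed counts of the 9 genes were 12794 to 13230 in air and 12596 to 14907 in hyperoxia, library 2 being the highest. It also had the fewest reads, 30384052, and its 10 most abundant genes took 10.4% of reads, as in air (10.5% to 10.9%), against 8.21% and 7.74% in the other hyperoxia libraries. Without it, 5 of the 9 genes passed, Cx3cr1 as higher and Aif1, Itgam, C1qa and C1qb as lower, while the share of all genes that passed was 43.6%.

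Other microglial identity genes went both ways. Of 26, all tested, 3 rose and 5 fell, which is 30.8% against 30.5% of all genes tested, with a median of -0.02. The Fc receptor-like gene Fcrls rose from 859 ± 9.48 to 1064 ± 95.6 (0.31, SE 0.09, limma adjusted p = 0.024). The cytokine receptor gene Csf3r fell from 276 ± 11.3 to 176 ± 9.63 (-0.65, SE 0.11, limma adjusted p = 0.0025). Ctss, a lysosomal protease of antigen-presenting cells, fell from 1438 ± 68.2 to 1056 ± 87.2 (-0.45, SE 0.08, limma adjusted p = 0.0045), and the selectin ligand gene Selplg from 1062 ± 45.1 to 778 ± 136 (-0.46, SE 0.12, limma adjusted p = 0.016). Csf3r and Ctss passed in all 16 alternatives. Fcrls was lost without any of the air libraries (adjusted p 0.069 to 0.089) and without trend (0.055), and Selplg without air library 1 (0.066), air library 3 (0.062) or hyperoxia library 1 (0.066) and without trend (0.054). Without hyperoxia library 2, 3 of the 26 rose and 8 fell, while 43.6% of all genes passed. Their summed counts were 22477 to 22698 in air and 20255 to 23420 in hyperoxia, the highest being library 2.

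Macrophages at the meninges and vessels share several of the 9 genes, and their own markers were counted beside them. Of 10 border macrophage genes 9 were tested, 5 rose and 0 fell (55.6%, median 0.86), with and without hyperoxia library 2. Of all genes, 30.5% passed with that library and 43.6% without it. Folr2, below the level at which genes were tested, went the other way, at 8.29 ± 3.60 in air and 2.82 ± 1.65 in hyperoxia. Mrc1, the mannose receptor gene, rose from 162 ± 20.8 to 384 ± 25.9 (1.25, SE 0.12, limma adjusted p = 3.9e-04) and F13a1, a coagulation factor gene, from 68.1 ± 4.65 to 167 ± 26.2 (1.27, SE 0.16, limma adjusted p = 9.2e-04). The scavenger receptor genes Cd163 (70.3 ± 11.8 to 140.0 ± 25.2) and Stab1 (646 ± 25.3 to 905 ± 26.6) and the hyaluronan receptor gene Lyve1 (42.5 ± 11.1 to 100.3 ± 4.34) rose as well. These 5 genes are named after their values were seen, and each passed in all 16 alternatives. The summed markers were 1036 to 1211 in air and 1854 to 1873 in hyperoxia, and none of the 10 was at 0 in all libraries. Their part in the Cx3cr1 difference was not tested. Only 2 of 10 blood leukocyte genes reached the mean of 10, none passed, and the summed level was 22.6 to 33.6 in air and 28.3 to 117 in hyperoxia.

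**Figure D4:**
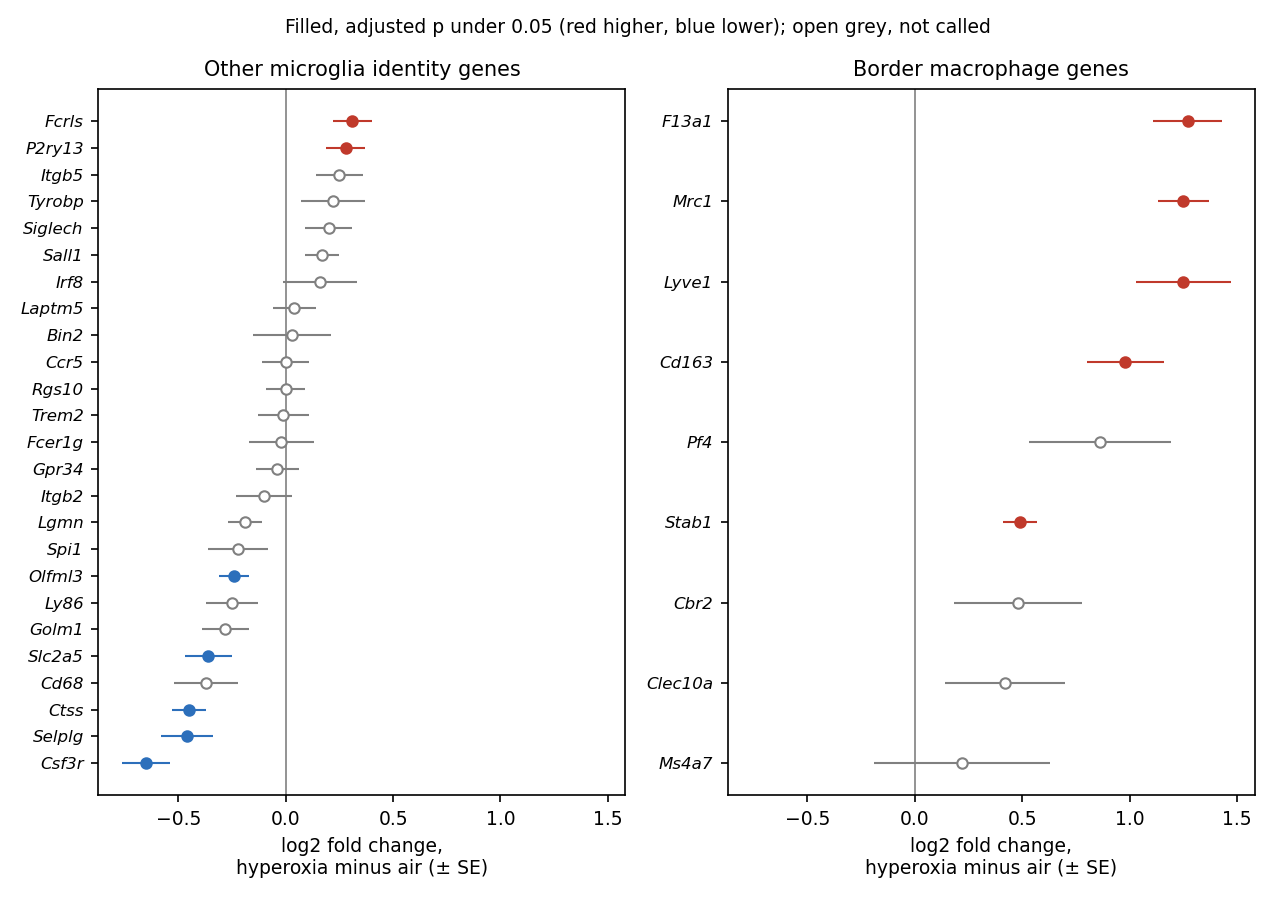
Log2 difference (hyperoxia minus air) ± SE of the other microglial identity genes (left, with 1 of the 26 not drawn) and the 9 border macrophage genes tested (right), with filled points for genes that passed the limma test, red if higher and blue if lower. The microglial genes lie on both sides of 0, with a median of -0.02 over all 26, and the border macrophage genes have a median of 0.86.

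Among 10 genes of purine signalling around P2ry12, 3 rose and 1 fell (40%, against 30.5% of all genes tested, median -0.12). Entpd1, which breaks ATP and ADP down to AMP, rose from 449 ± 17.4 to 572 ± 24.4 (0.35, SE 0.09, limma adjusted p = 0.014), and Nt5e, which turns AMP into adenosine, from 105 ± 4.0 to 163 ± 23.5 (0.62, SE 0.14, limma adjusted p = 0.011). P2ry13, a related ADP receptor gene, rose from 537 ± 20.3 to 653 ± 59.6 (0.28, SE 0.09, limma adjusted p = 0.046). It is also counted among the microglial identity genes above. The ATP-gated channel gene P2rx4 fell from 490.5 ± 18.2 to 358 ± 12 (-0.45, SE 0.09, limma adjusted p = 0.0049). The P2ry13 call was lost without any library other than hyperoxia library 3 (adjusted p 0.062 to 0.16), with no filter (0.058) and without trend (0.075), and the Entpd1 call without air library 2 (0.070) and with the length and GC trend removed (0.053).

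The rest of the complement system was measured through 28 genes, 26 of them tested, of which 3 rose and 3 fell (23.1%, against 30.5% of all genes, median 0.06). With the length and GC trend removed, 1 rose and 5 fell, while 34.7% of all genes passed, 2636 as higher and 3523 as lower. Among 11 tested components, Cr2, a receptor for C3 fragments, rose from 18.3 ± 4.62 to 33.6 ± 5.71 (0.86, SE 0.27, limma adjusted p = 0.041). That call was lost without air libraries 1 or 2 or hyperoxia libraries 1 or 3 (adjusted p 0.095 to 0.14), with no filter (0.053), with DESeq2 (0.074) and with the length and GC trend removed (0.096). C3, on which the pathway converges, averaged 11.6 in air and 18.1 in hyperoxia (0.69, limma adjusted p = 0.234), and C4b, the substrate of activated C1, 461 and 496 (0.10, limma adjusted p = 0.42). Among 15 tested regulators, 2 rose and 3 fell. Clu, the gene of the secreted chaperone clusterin, fell from 42500.0 ± 619.5 to 29349.7 ± 4069.5 (-0.54, SE 0.10, limma adjusted p = 0.0045).

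The membrane cofactor gene Cd46 rose from 271 ± 10.7 to 345 ± 31.7 (0.35, SE 0.11, limma adjusted p = 0.034), a call lost without any library other than hyperoxia library 2 (adjusted p 0.087 to 0.11), with quantile scaling (0.059) and with the length and GC trend removed (0.06, adjusted p = 0.67). Of the neuronal sushi domain genes, Sez6l2 fell from 9964 ± 252 to 7849 ± 784 (-0.35, SE 0.08, limma adjusted p = 0.013). Sez6l fell from 13770.3 ± 401 to 11428 ± 425 (-0.27, SE 0.07, limma adjusted p = 0.016). Sez6 did not pass (-0.22, limma adjusted p = 0.091). Neither did Csmd1 (0.17, limma adjusted p = 0.308), Csmd2 (-0.03, limma adjusted p = 0.881) or Csmd3 (0.37, limma adjusted p = 0.0588). The Sez6l2 call was lost without air library 1 or 2 (adjusted p 0.060 and 0.059) and the Sez6l call without any air library or hyperoxia library 1 (0.058 to 0.077). Clu passed in all 16 alternatives.

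Genes of engulfment and its brakes had 3 that rose and 0 that fell among 11 tested (27.3%, against 30.5% of all genes tested, median 0.21). The integrin gene Itgav rose from 925 ± 89.5 to 1733 ± 248 (0.90, SE 0.12, limma adjusted p = 0.0010), the phagocytic receptor gene Megf10, which astrocytes express, from 436 ± 17.7 to 646 ± 75.3 (0.56, SE 0.10, limma adjusted p = 0.0043), and the receptor kinase gene Axl from 1439.8 ± 29.5 to 1768 ± 43.0 (0.30, SE 0.07, limma adjusted p = 0.010). Only the Axl call was lost in any alternative, without air library 2 (adjusted p = 0.057).

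Genes used as signs of activated microglia went both ways, with 2 that rose and 3 that fell among 12 tested (41.7%, median -0.12). The share of all genes tested was 30.5%. Spp1, encoding osteopontin, measured 37.3 ± 13.5 in air and 155 ± 70.4 in hyperoxia (1.97, SE 0.37, limma adjusted p = 0.0043), and the other that rose was Axl. B2m, the light chain of MHC class I, fell from 5206 ± 695 to 2873 ± 416 (-0.86, SE 0.12, limma adjusted p = 0.0014). The tetraspanin gene Cd9 fell from 3839 ± 348 to 2293 ± 276 (-0.75, SE 0.10, limma adjusted p = 0.0012), and Gpnmb from 80.3 ± 4.09 to 48.4 ± 6.33 (-0.72, SE 0.17, limma adjusted p = 0.012, lost without air library 2 at 0.059).

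Of 18 inflammatory mediators, 11 were tested, 2 rose and 1 fell (27.3%, against 30.5% of all genes tested, median 0.04). Ptgs2, the inducible cyclooxygenase gene, which hippocampal neurons also express, fell from 759.7 ± 44.0 to 416 ± 92.4 (-0.89, SE 0.15, limma adjusted p = 0.0030). The inducible nitric oxide synthase gene Nos2 rose from 32.8 ± 15.7 to 66.6 ± 18.9 (1.08, SE 0.35, limma adjusted p = 0.043), and the endotoxin receptor gene Tlr4 from 28.2 ± 5.54 to 45.0 ± 3.91 (0.67, SE 0.22, limma adjusted p = 0.047). The Nos2 call was lost without air library 1 or 3 or hyperoxia library 1 or 2 (adjusted p 0.077 to 0.12), with quantile scaling (0.052), without trend (0.091) and with edgeR (0.050). The Tlr4 call was lost without any library other than hyperoxia library 2 (adjusted p 0.052 to 0.15), with no filter (0.068), with quantile scaling (0.054), with edgeR (0.051), with DESeq2 (0.10) and with the length and GC trend removed (0.11). Il1b averaged 4.0 in air and 6.52 in hyperoxia, below the level at which genes were tested.

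The 9 genes did not share a single profile across the libraries. Pearson's r between a gene and the mean standardised profile of all 9 over the 6 libraries ran from 0.053 for Cx3cr1 and 0.148 for Csf1r to 0.923 for P2ry12 and 0.928 for C1qc. These points share the profile that each gene helped to make. Outside the 9, the genes most like that mean profile were Akt1 (r = 0.998), Arhgdia (0.997), Faap20 (0.993), Mesdc2 (0.992) and Pigq (0.992). With the group means removed from the 6 libraries, the most alike genes included Tspan6 (0.9997), Pigq (0.999), Rhoc (0.998) and Mrpl44 (0.997). There r for the 9 genes ran from 0.482 for Cx3cr1 to 0.969 for P2ry12. Both searches ran over all genes tested, so r this high over 6 libraries can come from the search alone.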

How the data were processed

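Left hippocampal RNA of 3 air and 3 hyperoxia C57BL/6 mice was sequenced. The deposited values are a signal: reads per gene scaled by the authors with a single size factor for each library. The value of 1 read was 0.884 to 1.13, and 100% of the values checked, which left out the largest, were whole reads within 0.01. The submitters' processing notes name FastQC, STAR 2.5.3a, HTSeq and DESeq2, and neither build nor annotation is given in the sources used here. The authors' own fold changes and p-values were not used. Libraries were grouped by column header, whose numbers are not the animal numbers of the labels. The 9 genes and 20 further gene lists were chosen with earlier results of these data known.

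Genes with a mean of at least 10 were tested on log2(value + 1) with limma 3.58.1 and its mean-variance trend (R 4.3.3), Benjamini-Hochberg adjustment over 17778 genes and calls at adjusted p under 0.05. The script was tested on simulated data. The 16 alternatives changed the pseudocount (0.5 or 5), the filter (none or 50), the scaling (TMM or quantile) or the trend, used edgeR 4.0.16 or DESeq2 1.42.0 on recovered reads, removed length and GC trends (mgcv 1.9.3, 17735 genes), or left out each library. Positions came from GENCODE M21 (99.7% of identifiers found) and promoters from RefSeq (GRCm38.p6). Named from each microglial, complement or immune list was every gene that passed, or the 5 with the smallest p, with the ligands and Itgb2 and the 5 genes most like the mean profile. A few genes that this rule names are not reported here.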

Additional observations from a re-analysis of the deposited data

How the results depend on the processing

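Among the single-gene differences of the 9 genes over 16 alternatives, 132 kept their direction and side of the threshold, 8 newly passed and 4 changed sign. Cx3cr1 passed in all 16 (0.37 to 0.47), and P2ry12, Tmem119 and Csf1r in none. The number of the 9 that passed was 1 in the main analysis and 2 with a mean of at least 50, quantile scaling or no trend (Aif1 added) and with the length and GC trend removed (C1qc added). With each library left out it was 1 to 5, the 5 without hyperoxia library 2. The share of all genes that passed was 30.5% in the main analysis, 36.5% with a mean of at least 50 and 30.2% with quantile scaling. It was 34.7% with the length and GC trend removed, 21.3% with no filter and 23.8% without trend. With a library left out that share was 17.1% to 43.6%, highest without hyperoxia library 2. The changes of sign were P2ry12 at -0.06 with the length and GC trend removed and, among the analyses with a library left out, P2ry12 (-0.03 to 0.08), Tmem119 (-0.05 to 0.12) and C1qc (-0.09 to 0.18). Of the other microglial identity genes 8 passed in the main analysis, 5 with no filter, 4 without trend and 3 to 11 with a library left out. Of the complement genes 6 passed, and 2 to 8 with a library left out. Causes of these shifts were not tested, and fits with 5 libraries also have fewer samples. Over all genes, edgeR called 5501 and DESeq2 5611, against 5425 in the main analysis.

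No paired analysis was possible because the columns carry no animal numbers and the labels number the animals across both groups. Depth was least for Aif1, whose lowest library held 101 reads.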
